A study of Mus musculus with 11 samples.

Results

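The sites described here are HA peaks of the mouse line M00001 that had no counterpart in the line M00002 and lay on a coactivator or on RNA polymerase II. They were chosen by overlap of at least 1 bp. An HA peak of M00001 on chromosomes 1 to 19 or X was a member when it overlapped no HA peak of M00002 and no IgG peak of either line, and overlapped at least 1 M00001 peak of p300, Cbp, Rpb1 S5 or Rpb1 S2. Of the 9365 HA peaks deposited for M00001, 8504 lay on these chromosomes, 7462 of them were free of IgG, 3221 of those were found in M00001 only, and 758 carried a mark and were members. The members are therefore 8.09% of the deposited HA peaks and 23.5% of the M00001-only ones.

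The data were 11 CUT&RUN libraries, 6 of M00001 and 5 of M00002, with 1 library per target and line. CUT&RUN maps where a protein sits on DNA: a nuclease is brought to the antibody-bound protein in opened cells, and the short fragments it releases are sequenced. M00001 and M00002 are cell lines derived from tumours of 1 mouse each; both carry an HA-tagged fusion that the labels call CRfus1, taken here as the ZFTA-RELA fusion of the series title, and both were grown untreated in neural basal medium with B27, N2, bFGF and EGF on Matrigel. M00001 gave HA, IgG, p300, Cbp, Rpb1 S5 and Rpb1 S2, and M00002 gave HA, IgG, p65 and H3K27ac with the antibodies ac4729 and ac647. There is no line without the fusion, and strain, age and the promoter driving the fusion were not given in the sources used here. With 1 library per target no test between the lines was possible, so counts and shares are set side by side. Ranges after a share are its exact Clopper-Pearson 95% limits, and they hold for counting error over peaks, not for variation between cultures or animals. A site in M00001 only can be a site bound in fewer cells of M00002 or more weakly in each. It can also be a low or false call in the M00001 list, or a difference between the lists in how peaks were called or bounded. These cannot be told apart.

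The fusion joins the zinc finger protein ZFTA to RELA, the p65 subunit of NF-kappaB, and is a recurrent driver of supratentorial ependymoma. RELA carries a strong activation domain that recruits p300 and Cbp, related acetyltransferases that place acetyl groups on histone H3 lysine 27 (H3K27ac) at active promoters and enhancers. Rpb1 is the largest subunit of RNA polymerase II. Its tail is phosphorylated at serine 5 when transcription starts and at serine 2 during elongation, which the antibodies S5 and S2 are taken to report. p65 antibodies can bind both endogenous p65 and the RELA part of the fusion.

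Facts of the whole series limit what the lists can show. HA peaks numbered 30680 in M00002 and 9365 in M00001, and IgG peaks 7045 and 1806, at unknown read depth. The names of 2 lists, HA and p65 of M00002, include a 120 bp tag absent from the other 9, and their median widths were 115 and 118 bp, against 207 bp for HA of M00001. What the tag means was not given in the sources used here. For HA it cannot be told apart from the line. The titles of the 4 coactivator and polymerase libraries share a code that HA and IgG of M00001 lack. As a check of the labelled cells, Rpb1 S5 of M00001 lay within 1 kb of an end of 6 of 18 radial glia markers (Vim, Hes1, Id1, Id3, Notch1 and Tnc) and 4 of 15 ependymal markers, of 1 of 10 astrocyte markers (Aldoc), 1 of 12 microglia and leukocyte markers (Tmem119) and 2 of 15 markers of other tissues (Apoa2 and Sftpc), and of 0 of 15 neuronal, 0 of 12 oligodendrocyte lineage and 0 of 10 endothelial markers. Over all protein-coding genes the share with such an S5 peak was 20.9%. The radial glia markers Sox2, Pax6 and Nes and the ependymal regulator Foxj1 had no such S5 peak. In M00002, ac4729 lay as near to 7 of 18 radial glia, 3 of 15 ependymal, 2 of 10 astrocyte and 0 of 15 neuronal markers. It did so at 4 of 12 oligodendrocyte lineage, 3 of 12 microglia and leukocyte, 1 of 10 endothelial and 1 of 15 other markers. The share over all protein-coding genes was 32.4%. Nes and Foxj1 were among the markers with an ac4729 peak, and Sox2 and Pax6 were not.

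Promoter stretches of 7 members are printed first as examples, and they do not stand for all members at gene starts. Sun2, Gdf11, Hgs and Ino80dos among them carried p65 of M00002, where 19 of all 138 members in promoter windows (13.8%) did. The letters are the part of each RefSeq promoter (GRCm38.p6, the assembly behind mm10) that lay inside the HA peak and before the transcription start, read 5′ to 3′ on the strand of the gene. Capitals mark matches, on either strand, to any of 8 short motifs. The kappaB-like motif was searched as GGNNNTTCC, the AP-1 motif as TGANTCA and the cyclic AMP response element (CRE) as TGACGTCA. The PLAG-like core was searched as GGGGCC and the Ets motif as CCGGAAG. The NF-Y motif was searched as CCAAT, the GC box as GGGCGG and the TATA box as TATAAA. Matches to the GC box and to the PLAG-like core can overlap. Sun2, Gdf11 and Pisd fall under the naming rule, and Hgs, Tollip, Ttc7 and Ino80dos were chosen after their values were seen.
Sun2, minus strand, chr15:79742537-79742786: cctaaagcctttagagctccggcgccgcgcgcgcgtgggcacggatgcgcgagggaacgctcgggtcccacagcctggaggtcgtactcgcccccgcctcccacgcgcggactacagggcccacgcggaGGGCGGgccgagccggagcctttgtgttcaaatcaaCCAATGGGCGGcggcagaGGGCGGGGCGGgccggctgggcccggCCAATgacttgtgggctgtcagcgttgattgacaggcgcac
Gdf11, minus strand, chr10:128891719-128891921: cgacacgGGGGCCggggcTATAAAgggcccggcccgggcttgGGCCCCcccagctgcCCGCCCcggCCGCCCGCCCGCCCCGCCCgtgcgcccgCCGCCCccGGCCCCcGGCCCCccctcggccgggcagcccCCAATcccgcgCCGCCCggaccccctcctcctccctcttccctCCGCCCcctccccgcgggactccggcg
Pisd, minus strand, chr5:32746343-32746498: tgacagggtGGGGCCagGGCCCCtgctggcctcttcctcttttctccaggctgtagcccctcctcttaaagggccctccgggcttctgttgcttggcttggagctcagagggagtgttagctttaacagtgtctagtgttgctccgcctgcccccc
Hgs, plus strand, chr11:120467385-120467593: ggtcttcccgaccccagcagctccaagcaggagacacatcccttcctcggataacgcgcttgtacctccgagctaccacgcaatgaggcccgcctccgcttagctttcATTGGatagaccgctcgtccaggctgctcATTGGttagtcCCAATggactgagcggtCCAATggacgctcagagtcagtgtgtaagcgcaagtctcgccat
Tollip, minus strand, chr7:141902462-141902581: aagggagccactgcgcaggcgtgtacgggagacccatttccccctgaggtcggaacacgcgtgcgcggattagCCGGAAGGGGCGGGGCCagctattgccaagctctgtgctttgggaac
Ttc7, plus strand, chr17:87282660-87282885: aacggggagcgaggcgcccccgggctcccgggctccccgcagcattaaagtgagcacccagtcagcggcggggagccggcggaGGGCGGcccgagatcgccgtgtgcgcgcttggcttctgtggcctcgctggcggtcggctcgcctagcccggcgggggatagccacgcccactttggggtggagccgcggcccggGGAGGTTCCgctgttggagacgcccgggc
Ino80dos, plus strand, chr1:63114548-63114739: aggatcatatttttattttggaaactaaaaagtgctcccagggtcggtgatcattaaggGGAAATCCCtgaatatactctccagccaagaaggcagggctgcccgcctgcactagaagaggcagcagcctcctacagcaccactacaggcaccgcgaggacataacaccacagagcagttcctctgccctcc
The stretch at Sun2 held 4 GC boxes and 2 CCAAT boxes, that at Gdf11 8 GC boxes, 4 PLAG-like cores and a TATA box, and that at Hgs 4 CCAAT boxes. The Tollip stretch joined an Ets match to a GC box and a PLAG-like core. Only the Ttc7 and Ino80dos stretches of these held a kappaB-like match, the sequence class that p65 binds.

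The values of the HA peaks are given as a description, since the rule used the deposited HA calls but set no cut-off on fold. HA fold enrichment over the peak caller's background had a median of 3.88 among the members and ran from 1.94 to 31.7. The median member stood at percentile 33.8 of the HA list of M00001, so these were mostly low peaks of that list. The median fold was 5.90 for the 2688 shared sites with a mark and 3.48 for the 2463 M00001-only sites without one. A −log10 q of at least 2 was reached by 267 of the 758 members (35.2%), by 83.0% of the shared sites with a mark and by 12.3% of the M00001-only sites without one, and 44 members reached 5. The values 3.48 and 3.98 recurred in 130 and 93 members, and the 758 members held 297 distinct folds.

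**Figure D1:**
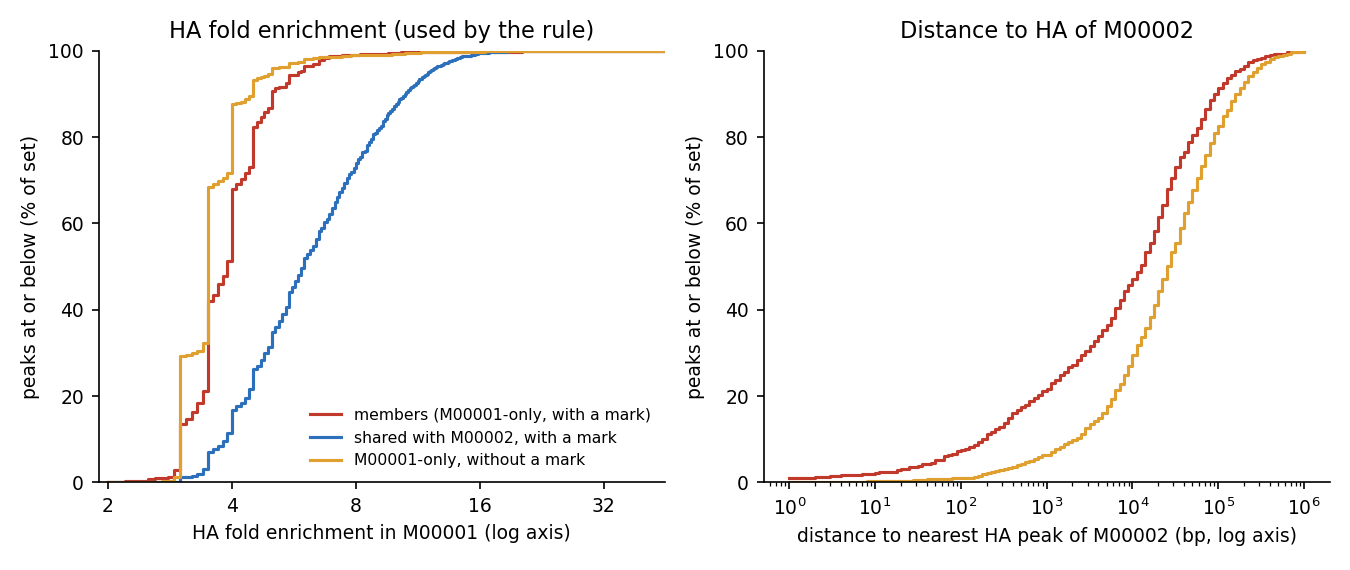
Cumulative share (% of each set, vertical axes) of HA peaks of M00001 by HA fold enrichment (left, log axis) and by distance in bp to the nearest HA peak of M00002 (right, log axis), for members, M00001-only peaks without a mark and, at left only, shared peaks with a mark. Medians of fold are 3.88, 3.48 and 5.90 in that order, and 21.6% of members against 6.46% of unmarked peaks lie within 1000 bp of an M00002 HA peak. The rule excluded overlap with HA of M00002. It used the HA calls, to which the words in the left title refer, but set no cut-off on fold.

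Rpb1 S2 was the mark that admitted most members, and its list was the longest of the 4. It held 22984 peaks, against 11032 for S5, 6655 for p300 and 6608 for Cbp. Rpb1 S2 overlapped 528 members (69.7%), Rpb1 S5 326 (43.0%), p300 252 (33.2%) and Cbp 242 (31.9%), where 39.2%, 24.5%, 16.8% and 9.49% of all IgG-free HA peaks did. These shares follow from the rule and nothing is read from them. A single mark admitted 397 members: S2 alone 227, S5 alone 61, p300 alone 57 and Cbp alone 52. All 4 marks met at 65 members. A coactivator without polymerase marked 122 members, polymerase without a coactivator 379, and both kinds 257. At the members the median folds of the marks were 3.92 for p300, 3.79 for Cbp, 4.29 for S5 and 4.21 for S2. The medians of the whole lists were 3.89, 3.43, 4.15 and 3.91 in that order. The summits of HA and the mark lay a median of 88.0, 89.0, 99.5 and 105.5 bp apart.

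The borders of the rule were narrow. The members with the least overlap shared 1 bp with S2 beside Ktn1 (HA fold 3.94), 2 bp with S2 at Tenm3 (3.98) and 2 bp with p300 in the desert whose nearest gene end is Rps29 (3.98). Next to them, M00001-only peaks at Arpin and Mark3 (both 3.98) touched an S2 peak without sharing a base and were left out. In all, 9 of the 397 single-mark members overlapped by fewer than 10 bp, and 40 unmarked peaks lay within 100 bp of a mark. On the side of the other line, members at Plch1, Fancc, Cryzl1 and Rbm4 abutted an HA peak of M00002 and the one at Trip6 lay 1 bp from it.

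Being called M00001-only did not mean being far from the fusion in M00002. An HA peak of M00002 lay within 100 bp of 57 members (7.52%; 5.74 to 9.63), within 1000 bp of 164 (21.6%; 18.8 to 24.7) and within 10 kb of 358 (47.2%). The median distance was 12192 bp for members and 24977 bp for unmarked M00001-only sites, of which 6.46% (5.52 to 7.50) had M00002 HA within 1000 bp. IgG of M00002 was also closer to members: it lay within 1000 bp of 81 members (10.7%; 8.58 to 13.1) and of 38 unmarked M00001-only sites (1.54%; 1.09 to 2.11), and its part in the distances to HA was not tested. The rule excluded overlaps with the peaks of both lists, so the distances are a description. Members near M00002 HA included the ends of Nsd3, which encodes a histone H3 lysine 36 methyltransferase, at 16 bp, and Rack1, which encodes a scaffold on the ribosome, at 19 bp. A promoter inside Dnmt1, the maintenance DNA methyltransferase gene, lay 4 bp from one. More than 10 kb away from any M00002 HA peak were 400 members.

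The 20 members with the highest HA fold spanned 6.46 to 31.7, and their folds in each library are drawn in the dot plot of top members. By H3K27ac of M00002 they fell into 8 with ac647 but not ac4729, 3 with both antibodies, 1 with ac4729 alone and 8 with neither. Only 4 of the 20 lay within 1 kb of a gene end, and 8 had their summit inside a protein-coding gene.

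**Figure D2:**
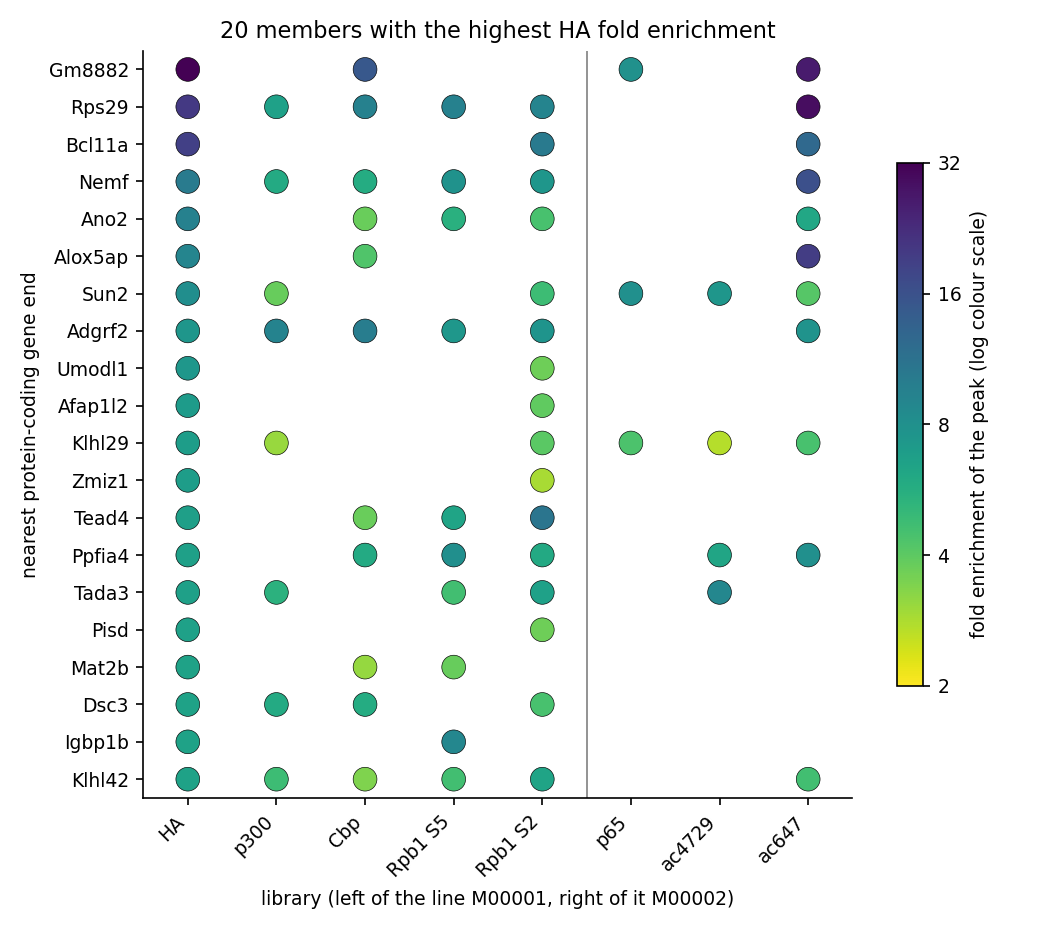
Fold enrichment (colour, log scale) of the peak in each library that overlaps each of the 20 members with the highest HA fold, named by the nearest protein-coding gene end; the vertical line parts libraries of M00001 (left) from those of M00002 (right), and an empty place means no overlapping peak. Of the 20, 11 show an ac647 peak, 4 an ac4729 peak and 3 a p65 peak.

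The strongest member lay at chr6:132463708-132463893, 99574 bp from the nearest protein-coding gene end (Gm8882). HA fold there was 31.7, Cbp was the only mark (15.1), and in M00002 p65 was 7.99 and ac647 26.1, with no ac4729 peak. The nearest HA peak of M00002 was 106802 bp away. The third in rank, chr11:25100073-25100249, lay 926515 bp from Bcl11a. Its values were 18.97 for HA, 10.3 for S2 and 12.5 for ac647. Both sites stood far from genes and both had ac647 without ac4729.

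The second and the fourth of the members by HA fold sat on the genes of the 7SL RNA, the RNA core of the signal recognition particle, which is made by RNA polymerase III and directs secreted proteins to the endoplasmic reticulum. At Rn7s1 (chr12:69159295-69159593), 118 bp from an end of Rps29, HA fold was 20.2, p300 6.61, Cbp 9.53, S5 9.60 and S2 9.16, and in M00002 ac647 was 29.2. At Rn7s2 (chr12:69361183-69361481), 3984 bp from Nemf, the values were 10.2, 5.96, 5.83, 7.78 and 7.44, with ac647 at 16.2. Every M00001 target other than IgG was thus present at both copies, higher at Rn7s1 for each of them within its list. Neither had a peak of HA, p65, ac4729 or IgG of M00002, or IgG of M00001; ac4729 peaks lay 234 and 259 bp away. Near-identical copies can share or misplace reads, and no mapping rule for them is given in the sources used here. Of the 3 genes of this class in the table these were the 2 with any IgG-free HA peak, and among 408 transfer RNA genes 1 (n-TDgtc6, HA 3.49 with p300 and S2) overlapped a member. In all, 3 members (0.396%; 0.0817 to 1.15) overlapped a small RNA gene, beside 0.295% of all IgG-free HA peaks.

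The members next in fold, apart from the promoter of Sun2 (HA 8.19), lay inside genes, at the end of one or beside one. In Ano2, which encodes a calcium-gated chloride channel, a site 162975 bp from an end had HA 9.59, Cbp 3.77, S5 5.48, S2 4.48 and ac647 6.16. Beside Alox5ap, which encodes the activating protein of leukotriene synthesis, a site 16676 bp away on the lncRNA gene Gm24105 had HA 9.04, Cbp 4.31 and ac647 19.6. At an end of Adgrf2, an adhesion receptor gene, HA was 7.46 with p300 9.30, Cbp 10.0, S5 7.35, S2 7.62 and, in M00002, ac647 7.70. Within Umodl1 (HA 7.39), Afap1l2 (7.09) and Zmiz1 (6.88), the last a coactivator gene of the PIAS-like family, S2 was the only mark, at 3.69, 3.95 and 2.86, and M00002 showed neither p65 nor H3K27ac.

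The Sun2 promoter printed above was the member with the highest HA fold among those with both H3K27ac antibodies. Sun2 encodes an inner nuclear membrane protein that links the lamina to the cytoskeleton. HA fold was 8.19, p300 3.801 and S2 4.78, and in M00002 p65 was 8.03, ac4729 7.47 and ac647 4.15. The nearest HA peak of M00002 was 271 bp away. Of the 10 strongest members with both antibodies, 7 lay within 1000 bp of M00002 HA and 5 carried p65. They included sites inside Klhl29 (HA 6.88), Ppfia4 (6.67) and Tcf7l1 (5.43), a repressor of Wnt targets, and gene ends of Nsd3 (5.84), Rack1 (5.88), Micall1 (6.28) and Arhgef12 (5.40).

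The member at Tada3, which encodes a subunit of histone acetyltransferase complexes, had HA 6.66, p300 5.46, S5 4.63 and S2 6.62, and in M00002 ac4729 at 8.91 without ac647 or p65. Among the 20 strongest it alone had ac4729 without ac647. At Pisd, the mitochondrial phosphatidylserine decarboxylase gene whose promoter stretch is printed above, HA was 6.64 and S2 3.71, without p65 or H3K27ac of M00002, whose HA lay 1310 bp away. Tmem231, a ciliary transition zone gene, had a promoter member with ac4729 at 7.87; its HA fold of 6.46 tied with the lowest of the 20, and it was named after its value was seen.

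p65 of M00002 was outside the rule, though it comes from the line whose HA list the rule used. It overlapped 50 of 758 members (6.60%; 4.94 to 8.60), where 48.4% of all IgG-free HA peaks did, 84.0% of shared sites with a mark and 1.58% of unmarked M00001-only sites. Among members with a −log10 q of HA under 2, from 2 to 5 and of at least 5, the shares were 5.09% (25 of 491), 9.42% (21 of 223) and 9.09% (4 of 44). In the same classes shared marked sites gave 60.6%, 76.3% and 95.1%. A p65 antibody can bind the fusion, and members were defined by lacking HA of M00002 while shared sites have it, so a lower p65 share at members is largely fixed by the rule and nothing is read from the gap. Fold of p65, where present, had a median of 4.39 at members and 8.18 at shared marked sites.

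Position was compared between members with and without p65: 22 of 50 (44.0%; 30.0 to 58.7) lay within 1 kb of a gene end, against 184 of 708 (26.0%; 22.8 to 29.4). S2, which the rule used, marked 45 of the 50 (90.0%), beside 68.2% of the 708 without p65. Position was not separated from S2, and the same split over other HA peaks is not given here. Both contrasts are a description only. The strongest after the chromosome 6 site and Sun2 were Klhl29 (p65 4.38), Nsd3 (4.67), Itsn1 (3.90), which encodes a scaffold of endocytosis, and a site 581346 bp from Tns3 (3.19). At Gdf11, which encodes a secreted growth factor of the TGF-beta family, HA was 5.47, S2 2.51 and p65 5.57. At Rabgef1, an exchange factor gene for Rab5, HA was 5.47, S2 4.08 and p65 4.79. The Hgs promoter, shared with Arl16, had HA 4.97, S2 10.3 and p65 6.24; Hgs encodes a sorting protein of endosomes. These 3 promoters overlapped no H3K27ac peak of either antibody and lay 18669, 29290 and 17010 bp from HA of M00002. At Ino80dos, the antisense RNA gene beside Ino80d, HA was 4.00, S5 6.18, S2 6.01 and p65 6.02, with ac4729 at 7.82 and ac647 at 3.22.

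H3K27ac of M00002 was likewise not used by the rule. With ac4729 it overlapped 239 members (31.5%; 28.2 to 35.0), beside 49.7% of all IgG-free HA peaks, 78.6% of shared marked sites and 7.63% of unmarked M00001-only sites. With ac647 it overlapped 175 (23.1%; 20.1 to 26.3), beside 35.4%, 53.6% and 5.89%. For both antibodies the members' share over whole sets lay between those of the shared and the unmarked sites, but the sets differ in HA strength. At an HA −log10 q of at least 5, ac647 was at 52.3% of members (23 of 44), 54.4% of unmarked sites (37 of 68) and 62.7% of shared marked sites. In that class ac4729 was at 27.3%, 11.8% and 84.1% in the same order. Both antibodies met at 100 members (13.2%; background 31.7%) and neither at 444 (58.6%; background 46.6%). Where a peak was present, the median ac4729 fold was 4.72 at members and 4.78 at shared marked sites, and the median ac647 fold was 4.24 and 5.42.

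**Figure D3:**
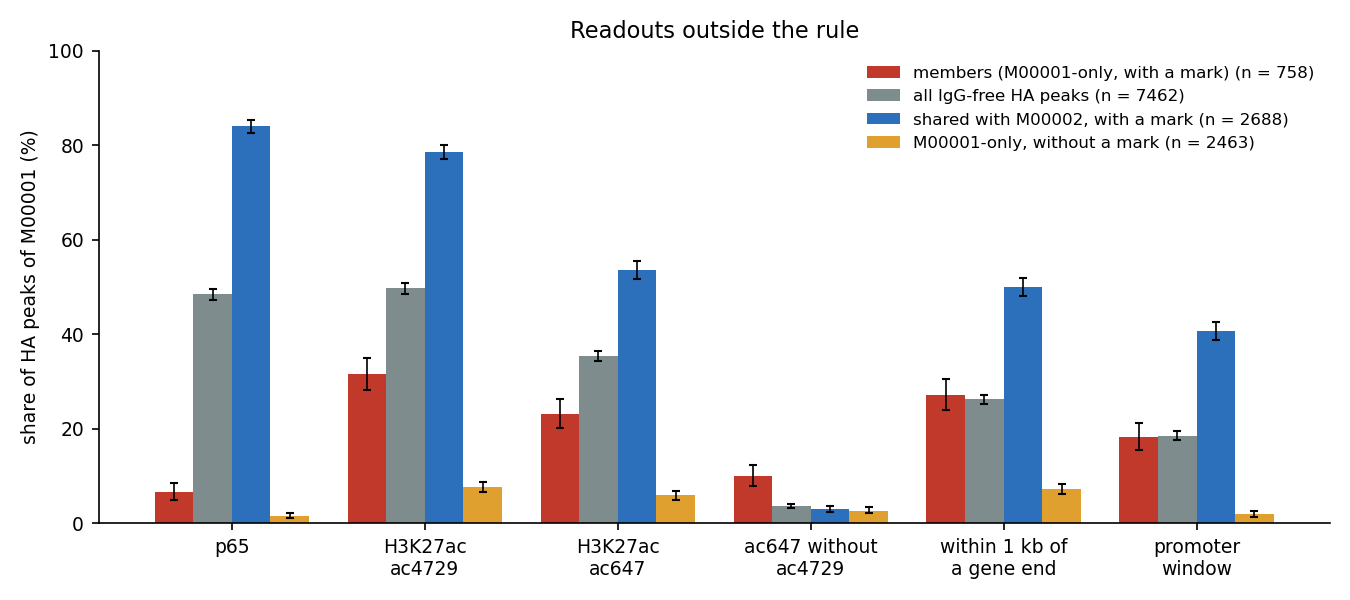
Share of HA peaks of M00001 (%, vertical axis) with each readout that the rule did not use, for the 758 members, all 7462 IgG-free HA peaks, 2688 shared peaks with a mark and 2463 M00001-only peaks without one; whiskers are exact Clopper-Pearson 95% intervals over peaks. Members lie between the shared and the unmarked peaks for p65 (6.60%), both antibodies and gene position, and above both sets for ac647 without ac4729 (9.89%). The shares pool peaks of all HA strengths, in which the sets differ, and the order for ac647 does not hold in every class of HA q.

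The antibodies parted at some members. ac4729 without ac647 marked 139 members (18.3%; 15.6 to 21.3), near the 18.04% of all IgG-free HA peaks, with 28.0% of shared marked sites and 4.43% of unmarked ones beside them. ac647 without ac4729 marked 75 members (9.89%; 7.86 to 12.2), beside 3.69% of all IgG-free HA peaks, 2.98% of shared marked sites and 2.68% of unmarked ones. Among members these classes differed in place: 85 of the 139 (61.2%, 52.5 to 69.3) lay within 1 kb of a gene end, against 5 of the 75 (6.67%, 2.20 to 14.9). The same split over other HA peaks is not given here, and place also went with the marks the rule used. The contrast therefore describes the members and is not shown to be particular to them. By mark, which is a description because the rule used the marks, 61 of the 75 (81.3%) carried p300 or Cbp against 24.5% of the 139. All 4 marks were at 21 of the 75 (28.0%), beside 8.58% of all members. Nothing is read from these contrasts in marks. In classes of HA −log10 q under 2, from 2 to 5 and of at least 5, ac647 alone marked 6.11%, 13.5% and 34.1% (15 of 44) of members, and 2.41%, 3.64% and 2.82% of shared marked sites. Unmarked M00001-only sites in the highest class gave 48.5% (33 of 68).

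Other values moved with the ac647-only class. Of its 75 members 21 (28.0%; 18.2 to 39.6) lay within 1000 bp of an IgG peak of either line, while 83 of all 758 (10.9%) did. HA peaks that overlapped IgG, which are no members, had ac647 without ac4729 in 32.1%. Both facts were measured; their part in the ac647-only members was not tested. Without the 83 members near IgG, ac647 alone marked 54 of 675 members (95% limits 6.07 and 10.3%).

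**Figure D4:**
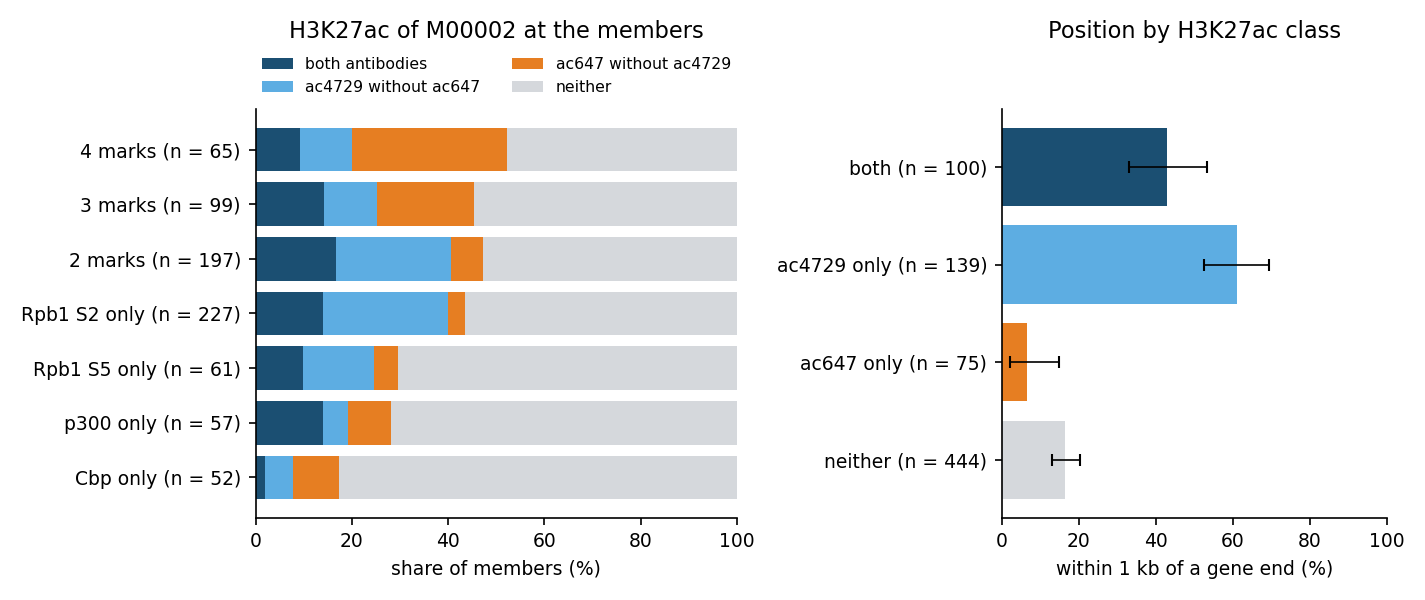
Left, share of members (%) by H3K27ac class of M00002 for members with 1 mark (by mark) and with 2, 3 or 4 marks; right, share within 1 kb of a gene end (%) by H3K27ac class, with exact Clopper-Pearson 95% intervals. The ac647-only class holds 32.3% of the 65 members with 4 marks, beside 9.89% of all members. The rule used the marks, so the left panel is a description. By a gene end lie 61.2% of ac4729-only members against 6.67% of ac647-only members, a description of members without the same split for other HA peaks.

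Within 1 kb of a gene end lay 206 members (27.2%; 24.0 to 30.5), near the 26.2% of all IgG-free HA peaks, with 49.9% of shared marked and 7.19% of unmarked M00001-only sites beside them. By mark, which is a description because the rule used the marks, polymerase without a coactivator stood near ends in 162 of 379 members (42.7%; 37.7 to 47.9), a coactivator without polymerase in 5 of 122 (4.10%; 1.34 to 9.31), and all 4 marks in 7 of 65 (10.8%; 4.44 to 20.9). ac4729 was present at 44.6% of polymerase-only and 13.1% of coactivator-only members. Of the single marks, S2 lay by ends in 41.9% of its 227 members, S5 in 16.4% of 61, p300 in 7.02% of 57 and Cbp in 1.92% of 52. Of all 379 members with a coactivator, 11.6% lay by a gene end. Since every member had to carry a mark, a member without a coactivator has polymerase and the reverse, and nothing is read from the contrast between these classes.

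Strongest among the 65 members with all 4 marks, after the 7SL genes and Adgrf2, were a site 6502 bp from Klhl42 (HA 6.46) and one inside Srsf4, a splicing factor gene (HA 6.22, p300 9.58, Cbp 7.21, S5 5.35, S2 5.06, ac647 4.24). Next were 3 sites at HA 5.97: inside Intu, a gene of cilium assembly (Cbp 7.21, S5 8.01), 224066 bp from Tshz3 and inside Ntm. M00002 had no peak of p65 or H3K27ac at these. None of the 10 strongest carried ac4729, and 6 carried ac647. IgG of either line lay within 1000 bp of 16 of the 65 (24.6%; 14.8 to 36.9), which is above the share of all members, and its part was not tested.

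Of the 758 members, 377 (49.7%) overlapped a protein-coding gene, 83 (10.9%) a lncRNA gene, and 291 (38.4%) lay outside protein-coding genes and over 5 kb from an end. The gene table holds starts and ends but no exons, so exonic and intronic sites are not separated here. Pseudogenes held 25 members (3.30%; 2.15 to 4.83), beside 1.29% of all IgG-free HA peaks, 0.186% of shared marked sites and 2.19% of unmarked M00001-only sites. Of these, 3 lay in Speer8-ps1 and 3 in Gm21811, members of families repeated in the mouse genome, and 2 in Amy2-ps1. Members within 25 kb of each other formed 43 groups with 109 members, of which 14 groups held 3 or more. The largest had 5 members beside Sfi1 on chromosome 11. Groups of 4 lay on chromosome 5 by Gm17019 and by Speer4c and Speer4d, on chromosome 8 by 9530057J20Rik and by Gm40469, by Olfr161 on chromosome 16 and by 4932411N23Rik on chromosome X. Speer and Dux genes, the latter beside a group of 3, come in many like copies, where reads can be shared between sites. Chromosome X held 29 members (3.83%; 2.58 to 5.45), beside 1.98% of all IgG-free HA peaks and 5.95% of HA peaks that overlapped IgG.

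Promoter windows of RefSeq, 250 bases before to 50 after a start, were overlapped by 138 members (18.2%; 15.5 to 21.1), beside 18.5% of all IgG-free HA peaks. S2 marked 136 of the 138, S5 66 and a coactivator 30, where 528, 326 and 379 of all 758 members had them. The rule used these marks, so the counts are a description. The windows themselves numbered 176 at 159 genes. Their median GC content was 64.7% and their median number of CpG dinucleotides 25, against 53% and 7 over all 32619 windows and 65% and 25 at shared marked sites, so motif shares below are read beside that base composition. A GC box was present in 133 of 176 (75.6%; all windows 35.9%), the PLAG-like core in 80 (45.5%; 25.1%), CCAAT in 73 (41.5%; 37.6%), and the Ets motif in 35 (19.9%; 8.92%). The kappaB-like motif was present in 36 (20.5%; 14.8 to 27.2), beside 18.6% of all windows and 24.1% of windows at shared marked sites. AP-1 was present in 15 (8.52%; 7.85%), the TATA box in 13 (7.39%; 13.7%) and CRE in 2 (1.14%; 1.80%). The PLAG-like core was in 61.7% of the windows at shared marked sites. A match is a description of letters, not of binding.

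Further promoter members show how far the readouts could differ at sites of like HA fold. At Tollip, an adaptor gene of Toll and interleukin 1 receptor signalling, HA was 4.97, S5 4.59 and S2 9.32, and M00002 had no peak of p65 or H3K27ac. At Ttc7, HA was 4.52, S5 4.09, S2 4.79 and ac4729 5.64. At E2f8, which encodes a repressor of the cell cycle, HA was 5.09, S2 6.51 and ac4729 4.71. At Dnmt1, HA was 5.12, S5 4.95 and S2 4.76 without H3K27ac, although HA of M00002 lay 4 bp away. All 4 were chosen after their values were seen.

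Genes with a member within 5 kb of an end numbered 366 of 21631 (1.69%), and 9 of them had 2 or more. Most also had the fusion in M00002 close by: 223 of the 366 (60.9%; 55.7 to 66.0) had an M00002 HA peak within 5 kb of an end, beside 40.0% of all genes. p65 of M00002 did so at 161 (44.0%; all genes 25.1%) and ac4729 at 296 (80.9%; all genes 43.1%). A shared HA site with a mark stood at 53 (14.5%; all genes 10.2%). IgG was also more frequent at these genes: IgG of M00002 at 39 (10.7%; all genes 4.82%) and IgG of M00001 at 10 (2.73%; all genes 1.43%). Its part in the shares above was not tested. Members had to carry a coactivator or polymerase, and the genes set beside them did not. The 143 genes with a member and no M00002 HA within 5 kb included Gdf11, Rabgef1, Rps29 and H4c4, and 97 of the 143 (67.8%; 59.5 to 75.4) had H3K27ac of M00002 from either antibody, beside 83.6% of the 366 genes and 44.3% of all genes.

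The share of listed genes with a member was near that of all genes. Of 441 distinct genes in 20 lists, 8 had a member within 5 kb of an end (1.81%; 0.786 to 3.54), close to the 1.69% of all genes, and 15 lists had 0. At that background share a list of 10 to 20 genes would mostly hold none, so nothing is read from the lists at 0. The ependymoma list (0 of 15), radial glia (0 of 18), ependymal (0 of 15), Notch (0 of 16), Hedgehog (0 of 12), immediate early (0 of 20), neuron (0 of 15), astrocyte (0 of 10), microglia and leukocyte (0 of 12), endothelium (0 of 10), other tissues (0 of 15), receptor tyrosine kinases (0 of 16), imprinted (0 of 12), housekeeping (0 of 15) and coactivator and polymerase (0 of 20) lists had none. Shared HA sites with a mark stood at 4 of the 15 ependymoma genes and 5 of the 18 radial glia genes, beside 10.2% of all genes. Among NF-kappaB targets 1 of 28 had a member and 16 a shared marked site.

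The listed genes with a member were these. Bcl3, an atypical I-kappaB protein that works with p50 and p52 in the nucleus, had a site 1304 bp from its end with HA 5.35 and S2 2.63, 1267 bp from HA of M00002. Sox10 and Cnp, a transcription factor and an enzyme of oligodendrocytes, had low sites with HA 2.98 and 3.46 and S2 2.72 and 3.29. The −log10 q of HA was only 0.11 and 0.75 there, under the 2 used above. HA of M00002 lay 312 and 19 bp from these 2 sites, and Sox10 had ac4729 at 4.73. Cdk2 shared a site with Rab5b and Pmel (HA 3.98 at a −log10 q of 1.52, p300 4.81, S5 6.61, S2 8.12, ac4729 4.92). Rpl11, a large ribosomal subunit gene, had HA 4.68, S5 5.04, S2 5.21, ac4729 6.09 and ac647 4.67, 21 bp from M00002 HA, and Rps29 is counted through the Rn7s1 site. H4c4 and H2bc6 shared 1 site (HA 3.48 at a −log10 q of 0.75, S5 4.14, ac4729 3.65).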

How the data were processed

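CUT&RUN was measured in 11 libraries of 2 mouse tumour lines, with calls made sample by sample and 1 list each. Per the submitters' processing notes, mm10, MACS2, Bowtie2 2.3.5.1, deepTools, FastQC and Trim Galore were used; settings and the control for calling were not given in the sources used here. In the format MACS2 writes, each peak the authors deposited has a score, a fold enrichment (ratio) at the summit, a −log10 p-value and a −log10 q-value; the smallest deposited −log10 p was 3. Fold is the authors' value, used only within its own list. Depth is unknown, since no read counts were used.

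Overlap meant at least 1 bp (Python, pandas and numpy; the overlap code was checked on simulated data). Samples were grouped by antibody and line. Positions used 21631 protein-coding genes and 32619 promoter windows of RefSeq GRCm38.p6. No test was run, because each target had 1 library per line; intervals are exact Clopper-Pearson at 95%, counting error only. Peaks on other sequences were left out. The named members are the 20 with the highest HA fold, the 10 highest with all 4 marks, with p65, with both H3K27ac antibodies and with neither, up to 4 per gene list, and 5 at each border of the rule; a few more are said to be chosen later. Members and lists were chosen with earlier results of these data known. Alternatives varied overlap, q, peak extent, distances, admitting lists and windows.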

Additional observations from a re-analysis of the deposited data

Results flagged for a closer look

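Outside chromosomes 1 to 19 and X, which the comparisons left out, 113 of the 861 HA peaks of M00001 fulfilled the same rule. Of the 214 IgG peaks of M00001 on those sequences, 11 overlapped a coactivator or polymerase peak while lying outside HA of either line and IgG of M00002. The sites were drawn to notice because the number in HA was above the number in IgG; the lists differ in length, and the sites were not analysed further.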

How the results depend on the processing

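For the number of members and for the shares, 9 alternatives were tried. The number of members (758) was 607 to 793 with a 50% overlap, a −log10 q of 2 for the marks, or windows of 250 bp around HA summits, 594 and 675 without HA of M00002 or IgG within 1000 bp, and 531 without Rpb1 S2. It came to 44 with an HA −log10 q of at least 5, 379 with p300 or Cbp only and 361 with at least 2 marks. At an HA −log10 q of at least 5, p65 was at 9.09% of members, ac4729 at 27.3%, ac647 at 52.3%, ac647 alone at 34.1% and gene ends at 22.7%. With p300 or Cbp only these were 4.75%, 18.5%, 25.6%, 16.1% and 11.6%. Without Rpb1 S2, ac4729 was at 27.9%, ac647 alone at 12.6% and gene ends at 20.9%. With at least 2 marks, ac647 was at 29.6% and ac647 alone at 15.0%. Without M00002 HA within 1000 bp, ac4729 was at 24.6%, ac647 at 19.02% and gene ends at 21.0%. Gene ends came to 31.5% both with a 50% overlap and with marks of −log10 q of at least 2. In all 9, p65 stayed below 10%, with limits of 2.53 and 21.7% at the HA −log10 q of at least 5 (4 of 44). All 9 kept an exclusion by HA of M00002, which largely fixes a low p65 share, so nothing is read from this. Genes with a member numbered 235 at 1 kb, 909 at 25 kb and 19 at the stricter q, and listed genes 5 at 1 kb and 21 at 25 kb. Among promoters of genes with a member within 5 kb, the GC box was at 63.1%. In all, 39 of 67 values lay within the counting interval of the share, or within 1.5 times the number, reported. The ac647-only share was added after seeing the data. No paired analysis was possible because each target had 1 library per line. The cause of these shifts was not tested, except that the rules with fewer members test fewer peaks. The 50% overlap also held for the exclusions by HA of M00002 and by IgG, which became looser, and it gave 793 members. Without read counts, depth sets which low peaks can be seen, and its size is unknown.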
